A study of Homo sapiens with 12 samples.

Results

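Septins are GTP-binding cytoskeletal proteins. They join end to end into rods and filaments that sit under the plasma membrane, on actin bundles and at the cleavage furrow, where the contractile ring divides the cell. Each septin belongs to one of a few subgroups, named after SEPTIN2, SEPTIN3, SEPTIN6 and SEPTIN7, and a rod takes members from several of them, with SEPTIN7 as the member that has no close substitute in its subgroup.

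The septin family was taken here as 7 gene symbols, 2-Sep, 6-Sep, 7-Sep, 8-Sep, 9-Sep, 10-Sep and 11-Sep, which the deposited array table writes as dates and which stand for SEPTIN2, SEPTIN6, SEPTIN7, SEPTIN8, SEPTIN9, SEPTIN10 and SEPTIN11. These are 7 of the 34599 names in the table. They were carried by 14 of the 47228 probes: 4 for SEPTIN2, 3 each for SEPTIN6 and SEPTIN10, and 1 each for the other four genes. The 7 symbols were chosen by values measured on these same arrays, with no threshold stated. The differences between groups below are therefore descriptions of how the members behaved, and no p-value is given for a member. Where a member is said to be called or not, this only places it against the threshold used for all probes. Such a call is not a test of the member. A probe was tested when 2 or more of the 12 arrays detected it, at a detection p under 0.05. This filter kept 11 of the 14 member probes, from 6 of the 7 genes, and SEPTIN8 had no probe among them.

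The arrays came from 2 human pancreatic ductal adenocarcinoma cell lines, MIA PaCa-2 and Capan-1. Each line stably carried a doxycycline-inducible PLKO.1 tet-on vector, selected with puromycin (3.5 ug/ml in MIA PaCa-2, 1.5 ug/ml in Capan-1), that expressed a control hairpin (shCtrl) or one of 2 hairpins against the mRNA of FAK, the focal adhesion kinase encoded by PTK2 (sh1209 and sh1319). All 6 groups, controls included, received 50 ng/ml doxycycline for 96 h, so no array shows cells without the inducer. Each group had 2 arrays, and nothing in the labels says whether the 2 came from separate cultures, so the spread between them may be technical.

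PTK2 was reduced by both hairpins in both lines. Its normalized log2 intensities (probe 450253) were 9.45 and 9.46 with shCtrl, 7.28 and 7.14 with sh1209, and 6.92 and 7.03 with sh1319 in MIA PaCa-2. In Capan-1 they were 10.35 and 10.17 with shCtrl, 9.66 and 9.63 with sh1209, and 8.48 and 8.49 with sh1319. The fall was thus smallest for sh1209 in Capan-1, at 0.61 (SE 0.11, limma adjusted p = 0.0036), and it was 0.46 and no longer past the threshold when arrays were scaled to equal medians. A dimmer PTK2 probe passed the threshold in none of these 4 comparisons. Across arrays the median intensity ran from 87.7 to 97.0 and the number of detected probes from 16259 to 19814, and Pearson's r between the 2 arrays of a group was 0.991 to 0.994. Some of the epithelial and mesenchymal-type markers separated the lines, and others did not. With shCtrl, 3 of the 6 tested epithelial probes were called lower in MIA PaCa-2, and 1 was called higher there. KRT8 and KRT18 were detected in all 6 arrays of each line. Their brightest probes averaged 10.17 and 6.93 over the MIA PaCa-2 arrays and 10.79 and 7.42 over those of Capan-1. The mesenchymal-type gene ZEB1 was detected in no array. The epithelial gene CDH1 was detected in 0 of 6 MIA PaCa-2 arrays and in 6 of 6 Capan-1 arrays, and VIM (vimentin, probe 830593) averaged 13.21 in the shCtrl arrays of MIA PaCa-2 but 5.66 in those of Capan-1. Of 7 markers of other cell types (leukocytes, endothelium and fibroblasts), 5 had no tested probe. Their summed normalized intensity was 139 to 154 with shCtrl in MIA PaCa-2, 326 to 350.0 with sh1209 and 298 to 300.1 with sh1319, against 142 to 156 over all Capan-1 arrays. The rise came from COL3A1, a fibrillar collagen gene, which was detected in all 4 MIA PaCa-2 arrays with a FAK hairpin and in no other array. No probe of PTPRC, CD3E, CDH5, DCN or PDGFRB was detected in more than 1 array. The other tested marker, PECAM1 of endothelium, read 4.73 ± 0.28 (SD, n = 2) with shCtrl and 5.30 ± 0.09 with sh1209 in Capan-1, a rise of 0.57 (limma adjusted p = 0.042) whose call was lost without either sh1209 array (0.63 and 0.49), either sh1319 array (0.56 and 0.55) or shCtrl replicate 1 (0.37) of Capan-1, and without background correction (0.18). COL3A1 moved with both FAK hairpins in MIA PaCa-2 and PECAM1 with sh1209 in Capan-1, and their part in the septin values was not tested.

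The windows before the transcription starts of the 2 members that were called lower with both hairpins in MIA PaCa-2, SEPTIN11 and SEPTIN7, are shown with that of SEPTIN10, a close relative of SEPTIN11 that was called lower with neither. Each is the 250 bases before the RefSeq start, from RefSeq GRCh38.p14, printed 5′ to 3′ on the gene's strand. Capitals mark the GC box GGGCGG, read on either strand, so CCGCCC also counts. SEPTIN11 lies at chr4:76949752-77040154, SEPTIN7 at chr7:35800986-35915763 and SEPTIN10 at chr2:109542799-109613966.
SEPTIN11 (chr4:76949502-76949751, plus strand): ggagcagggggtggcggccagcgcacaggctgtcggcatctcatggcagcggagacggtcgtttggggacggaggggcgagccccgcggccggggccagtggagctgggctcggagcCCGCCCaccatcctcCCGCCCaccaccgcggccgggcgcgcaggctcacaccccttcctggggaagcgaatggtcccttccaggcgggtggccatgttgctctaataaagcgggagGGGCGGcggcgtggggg
SEPTIN7 (chr7:35800736-35800985, plus strand): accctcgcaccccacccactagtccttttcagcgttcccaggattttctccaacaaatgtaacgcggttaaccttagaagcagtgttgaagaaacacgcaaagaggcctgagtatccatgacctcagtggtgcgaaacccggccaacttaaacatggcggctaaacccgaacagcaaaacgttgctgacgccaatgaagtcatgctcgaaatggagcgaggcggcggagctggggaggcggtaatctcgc
SEPTIN10 (chr2:109613967-109614216, minus strand): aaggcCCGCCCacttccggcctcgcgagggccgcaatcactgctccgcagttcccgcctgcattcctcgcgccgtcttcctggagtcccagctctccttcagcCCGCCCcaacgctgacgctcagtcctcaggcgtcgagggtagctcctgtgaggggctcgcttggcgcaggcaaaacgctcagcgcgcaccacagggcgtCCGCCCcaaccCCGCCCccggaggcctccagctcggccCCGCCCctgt

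The SEPTIN11 window held 3 GC boxes and 73.6% G or C, the SEPTIN10 window 5 and 71.2%, and the SEPTIN7 window none and 53.6%. The windows of the other two RefSeq starts of SEPTIN7 held 1 and 2 GC boxes and 60% and 70.4% G or C. Of 35116 RefSeq promoter windows of the same length, 42.6% held a GC box, and their median G or C content was 58%. Over all 21 windows of the 7 genes, 14 held a GC box. The CCAAT box (CCAAT) was in 5 of the 21 against 32% of all windows, the AP-1 motif (TGANTCA) in 4 against 6.57%, and the TEAD motif (GGAATG) in 3 against 11.9%, all read on both strands. SEPTIN9 alone supplied 10 of the 21 windows, among them all 4 with the AP-1 motif. The windows of SEPTIN7 overlap one another, and several genes supplied more than 1 window, so the windows are not independent. A match here is a stretch of letters and no measure of binding.

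SEPTIN11, a member of the SEPTIN6 subgroup, was the member with the widest range of levels. Its only probe (20288) read 8.46 and 8.32 with shCtrl in MIA PaCa-2, 5.68 and 5.97 with sh1209, and 7.07 and 7.00 with sh1319 on the normalized log2 scale. The 3 groups did not overlap, and the arrays with sh1209 were the lowest of all 12. In Capan-1 the same probe read 8.03 and 8.15 with shCtrl, 7.66 and 7.60 with sh1209, and 8.01 and 8.08 with sh1319, where both sh1209 arrays lay below both control arrays. Ordered by mean, the levels were 8.39 ± 0.10 (SD, n = 2) for shCtrl in MIA PaCa-2, then 8.09 ± 0.08 for shCtrl, 8.05 ± 0.05 for sh1319 and 7.63 ± 0.04 for sh1209 in Capan-1, then 7.04 ± 0.05 for sh1319 and 5.83 ± 0.20 for sh1209 in MIA PaCa-2. The neighbours shCtrl and sh1319 in Capan-1 overlapped.

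The SEPTIN11 difference from shCtrl in MIA PaCa-2 was −2.56 (SE 0.13) with sh1209, which leaves 16.9% of the control intensity, and −1.35 (SE 0.13) with sh1319, which leaves 39.1%. In Capan-1 it was −0.46 (SE 0.13) with sh1209 and −0.04 (SE 0.13) with sh1319. The first 3 of these passed the threshold. The call for sh1209 in Capan-1 did not hold: with arrays scaled to equal medians the difference was −0.23 and not called, and the call was also lost, at −0.41 to −0.52, without either shCtrl array or either sh1209 array of Capan-1. The order of the hairpins was the reverse of that for PTK2, although not every difference was called. In MIA PaCa-2 SEPTIN11 was 1.21 (SE 0.13) lower with sh1209 than with sh1319, while PTK2 was 0.24 (SE 0.11) higher, which was not called, and in Capan-1 SEPTIN11 was 0.42 lower with sh1209, not called, while PTK2 was 1.16 higher, called. With shCtrl, SEPTIN11 read 0.30 higher in MIA PaCa-2, a difference that was not called.

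**Figure D1:**
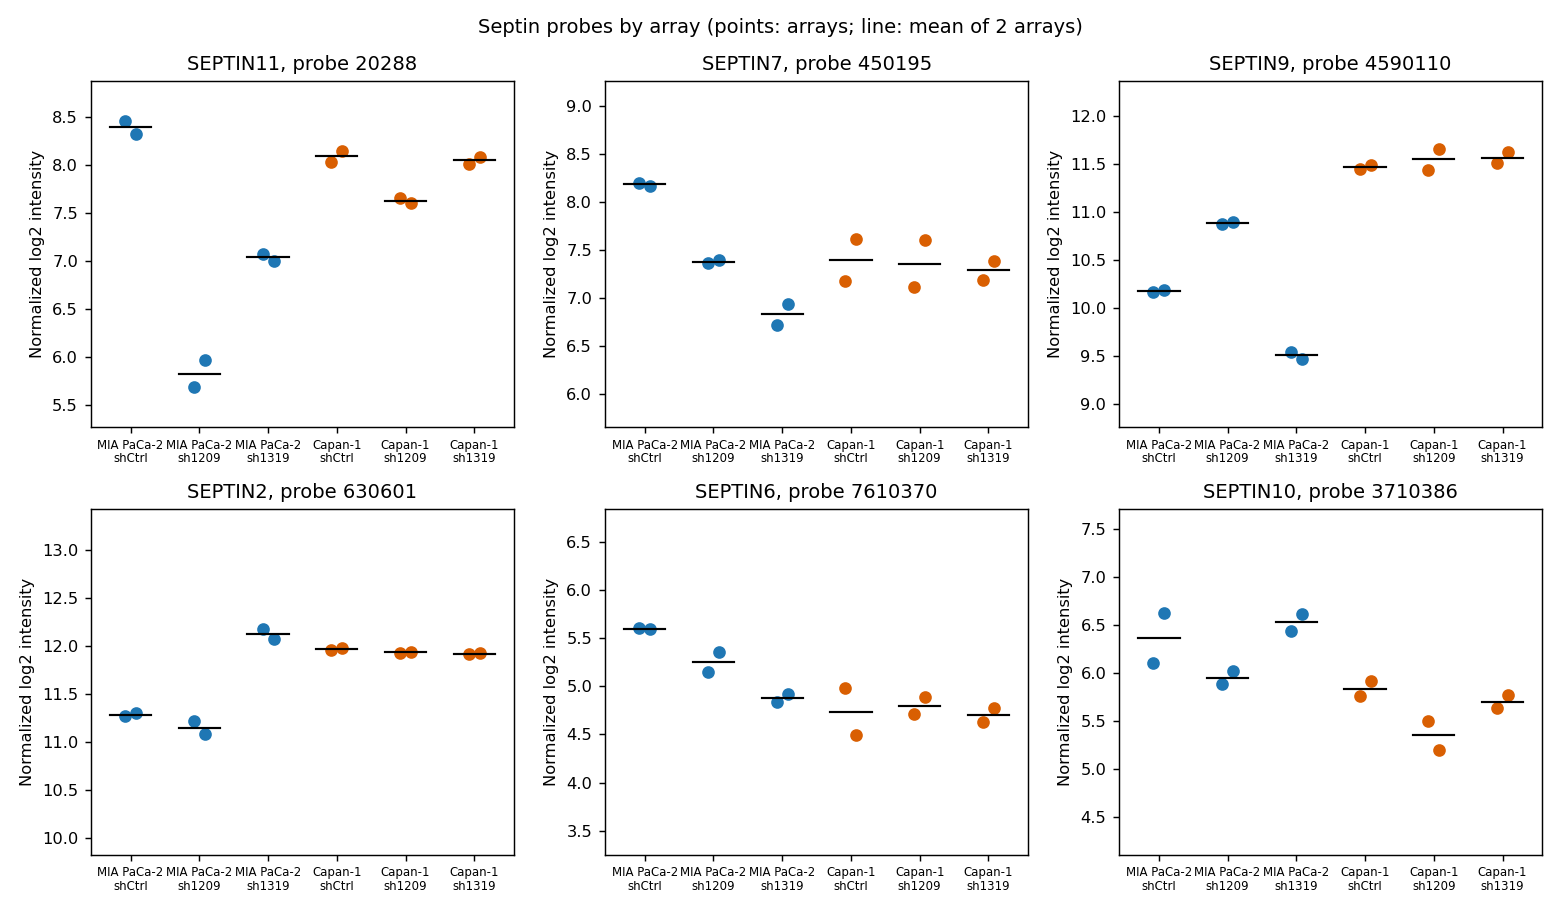
Normalized log2 intensity of 1 probe for each of 6 septins in the 6 groups of cell line and hairpin. Points are the 2 arrays of a group, lines their mean, blue is MIA PaCa-2 and orange Capan-1, and every panel spans the same number of log2 units. SEPTIN11 and SEPTIN7 lie lower with both FAK hairpins than with shCtrl in MIA PaCa-2, and SEPTIN9 lies above shCtrl with sh1209 and below it with sh1319.

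SEPTIN7, the subgroup member that most septin rods contain, was also lower with both hairpins in MIA PaCa-2. Its probe (450195) read 8.19 and 8.17 with shCtrl, 7.36 and 7.39 with sh1209, and 6.72 and 6.94 with sh1319, with no overlap between the groups. The Capan-1 arrays read 7.18 and 7.62 with shCtrl, 7.11 and 7.61 with sh1209, and 7.18 and 7.39 with sh1319, and here all 3 groups overlapped. Unlike for SEPTIN11, the lower-reading FAK hairpin in this line was sh1319, by a difference that was not called. The differences from shCtrl were −0.80 (SE 0.18, 57.3% of control) and −1.35 (SE 0.18, 39.2% of control) in MIA PaCa-2, both called, and −0.04 and −0.11 in Capan-1, neither called. The sh1209 call was lost without sh1209 replicate 1 of MIA PaCa-2, at −0.79. RefSeq lists 15 SEPTIN7 pseudogenes, and the probe's sequence was not used here, so which of these transcripts it reads is uncertain.

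SEPTIN9, the SEPTIN3 subgroup member that lengthens a septin rod, moved in opposite directions with the 2 hairpins in MIA PaCa-2. It lies at chr17:77281499-77500596, and its probe (4590110) read 10.17 and 10.18 with shCtrl, 10.88 and 10.90 with sh1209, and 9.54 and 9.47 with sh1319. No 2 of these groups overlapped. The Capan-1 arrays were all higher, at 11.44 and 11.49 with shCtrl, 11.44 and 11.65 with sh1209, and 11.50 and 11.63 with sh1319. The sh1209 arrays overlapped both other groups there, and both sh1319 arrays lay just above both shCtrl arrays. The difference from shCtrl in MIA PaCa-2 was 0.71 (SE 0.12) with sh1209 and −0.67 (SE 0.12) with sh1319, and between the hairpins it was 1.38 (SE 0.12), all called. In Capan-1 the differences from shCtrl were 0.08 and 0.10. The mean of the 2 opposite differences in MIA PaCa-2 differed from the mean of those in Capan-1 by −0.07 (SE 0.14).

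SEPTIN2, which gives its name to its own subgroup and binds myosin, rose with sh1319 and not with sh1209 in MIA PaCa-2. It lies at chr2:241315355-241354027. The bright probe 630601 read 11.27 and 11.30 with shCtrl, 11.21 and 11.08 with sh1209, and 12.17 and 12.07 with sh1319. The sh1319 arrays were the highest of the 12 for this probe. In Capan-1 it ran only from 11.91 to 11.97 over all 6 arrays. A second bright probe, 5960703, gave nearly the same differences: −0.25 with sh1209 and 0.84 (SE 0.12) with sh1319 in MIA PaCa-2, against −0.14 and 0.84 (SE 0.11) for the first, with only the sh1319 differences called. The other two SEPTIN2 probes were dim. Probe 6940619 did not show the rise, with 0.14 (SE 0.18) for sh1319, and probe 3940139 was detected in 6 of the 12 arrays and none of its differences was called.

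The remaining members of the SEPTIN6 subgroup were dim, and their values stand close to the background. SEPTIN6, an X-linked gene at chrX:119615724-119693168, was read by probe 7610370 at 5.61 and 5.59 with shCtrl, 5.15 and 5.35 with sh1209, and 4.84 and 4.92 with sh1319 in MIA PaCa-2. These 3 groups did not overlap, and the difference from shCtrl was −0.35 (SE 0.16) with sh1209, not called, and −0.72 (SE 0.16) with sh1319, called. That call was lost with arrays scaled to equal medians, at −0.56. In Capan-1 the probe ran from 4.49 to 4.99 and its groups overlapped. Of the other two SEPTIN6 probes, 610278 was detected in 2 arrays and 6270020 in none.

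SEPTIN10 was not called lower with either hairpin in MIA PaCa-2. Probe 3710386 read 6.10 and 6.62 with shCtrl, 5.88 and 6.02 with sh1209, and 6.44 and 6.61 with sh1319 in MIA PaCa-2, so shCtrl and sh1319 overlapped. Its differences from shCtrl, −0.41 and 0.17 in the first line and −0.49 and −0.14 in Capan-1, were not called. Probe 7400327 differed by −0.02 with sh1209 and by 0.74 (SE 0.23) with sh1319 in MIA PaCa-2, the latter called, but its shCtrl arrays read 6.02 and 5.17, and without the lower of them, replicate 2, the difference was 0.32 and not called. The call was also lost without either sh1319 array (0.85 and 0.63). In Capan-1 the differences of this probe were −0.48 with sh1209 and −0.01 with sh1319, not called. Both probes thus read lower with sh1209 than with sh1319 in both lines, as that of SEPTIN11 did, with calls for these differences in MIA PaCa-2 only. The last probe, 6940184, was detected in no array. The one probe for SEPTIN8, 1500451, was detected in no array, with raw intensities of 86.3 to 98.4, so no level of SEPTIN8 was measured in either line.

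**Figure D2:**
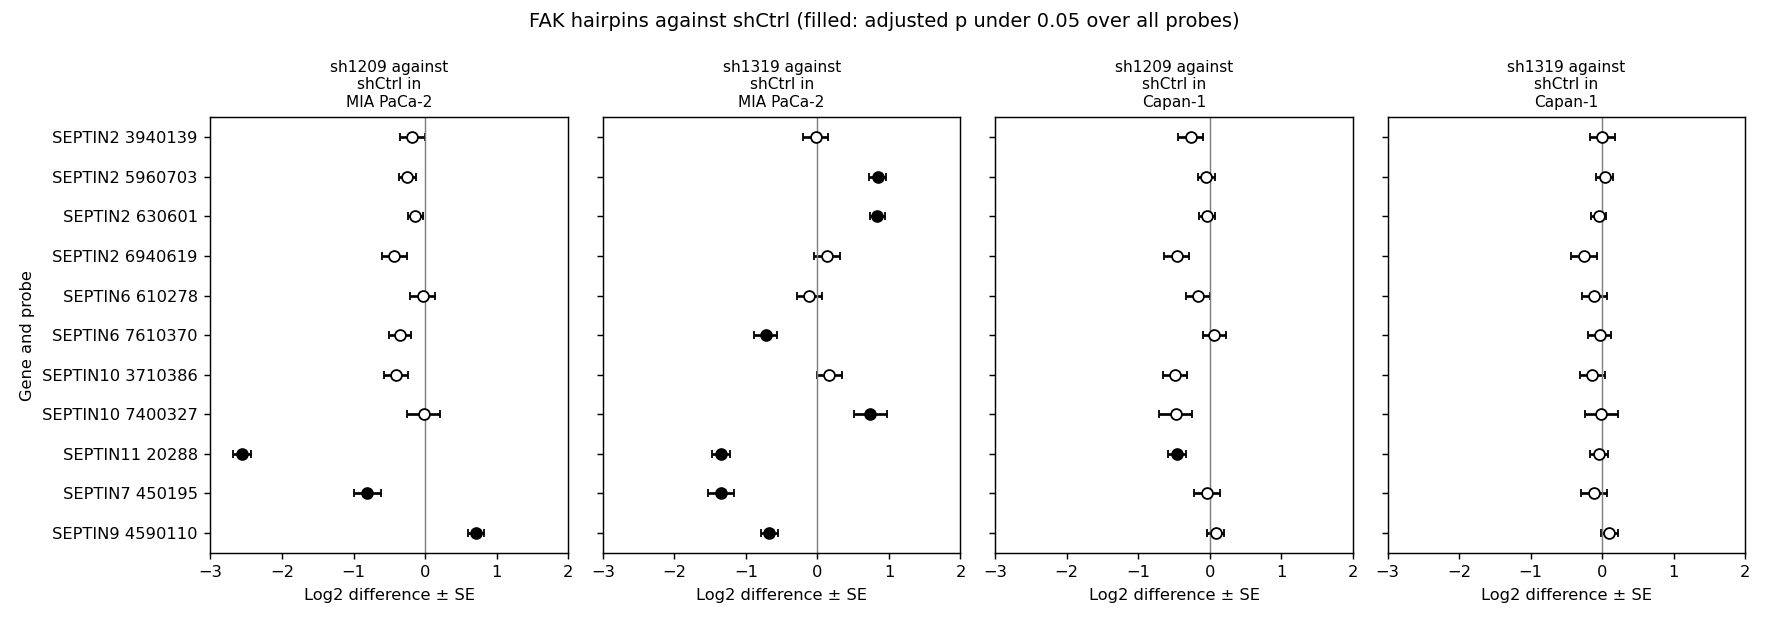
Log2 difference from shCtrl, with its standard error, for the 11 tested septin probes in each hairpin and cell line (n = 2 arrays in each group). Filled points passed an adjusted p of 0.05 over all 24207 tested probes. The calls lie in the MIA PaCa-2 panels apart from SEPTIN11 with sh1209 in Capan-1.

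Counted over the 11 tested member probes, 1 was higher and 2 were lower with sh1209 in MIA PaCa-2, where 18.0% of all tested probes were called. With sh1319, 3 were higher and 4 lower against 24.3% of all probes. In Capan-1, 0 were higher and 1 was lower with sh1209, against 16.8%, and 0 were called with sh1319, against 13.7%. That 0 came from limma, by which 0 of the 11 also had an unadjusted p under 0.05. The unadjusted two-tailed unpaired test that the methods name called 1 of the 11, beside 4393 over all probes. The median difference of the 11 probes was −0.25, −0.03, −0.17 and −0.04 in these 4 comparisons, while the median over all tested probes lay between −0.01 and 0.01 in each. Since the genes were chosen on these arrays, nothing is read from these shares.

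Within MIA PaCa-2 the 2 hairpins were set against each other. There 1 member probe, that of SEPTIN9, was higher with sh1209 than with sh1319 and 6 were lower, beside 22.6% of all probes called. The 6 were SEPTIN11, 3 probes of SEPTIN2 (−0.98, −1.09 and −0.56) and 2 of SEPTIN10 (−0.57 and −0.76). The calls for the dim SEPTIN2 probe 6940619 and for both SEPTIN10 probes were lost without any one of the 4 MIA PaCa-2 arrays carrying a FAK hairpin, that for probe 6940619 also without either sh1319 array of Capan-1. SEPTIN7 was 0.55 (SE 0.18) higher with sh1209 than with sh1319, which was not called. In Capan-1 the same comparison called 0 of the 11 in limma, beside 11.3% of all probes. By limma 1 of the 11 had an unadjusted p under 0.05. The unadjusted test that the methods name called 2 of the 11, beside 3988 over all probes.

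Between the lines with shCtrl, 3 member probes were higher in MIA PaCa-2 and 3 lower, beside 42.1% of all probes called. The higher ones were SEPTIN6 (0.86, SE 0.16), SEPTIN7 (0.79, SE 0.18) and SEPTIN10 probe 3710386 (0.52, SE 0.17). The lower ones were SEPTIN9 (−1.29, SE 0.12) and both bright SEPTIN2 probes (−0.68 and −0.65). For SEPTIN7 the call rested on the lower Capan-1 shCtrl array: without replicate 1 the difference was 0.56 and not called. For SEPTIN10 the call was lost without MIA PaCa-2 shCtrl replicate 2 (0.26) or without either Capan-1 shCtrl array (0.45 and 0.60), and with arrays scaled to equal medians (0.27).

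**Figure D3:**
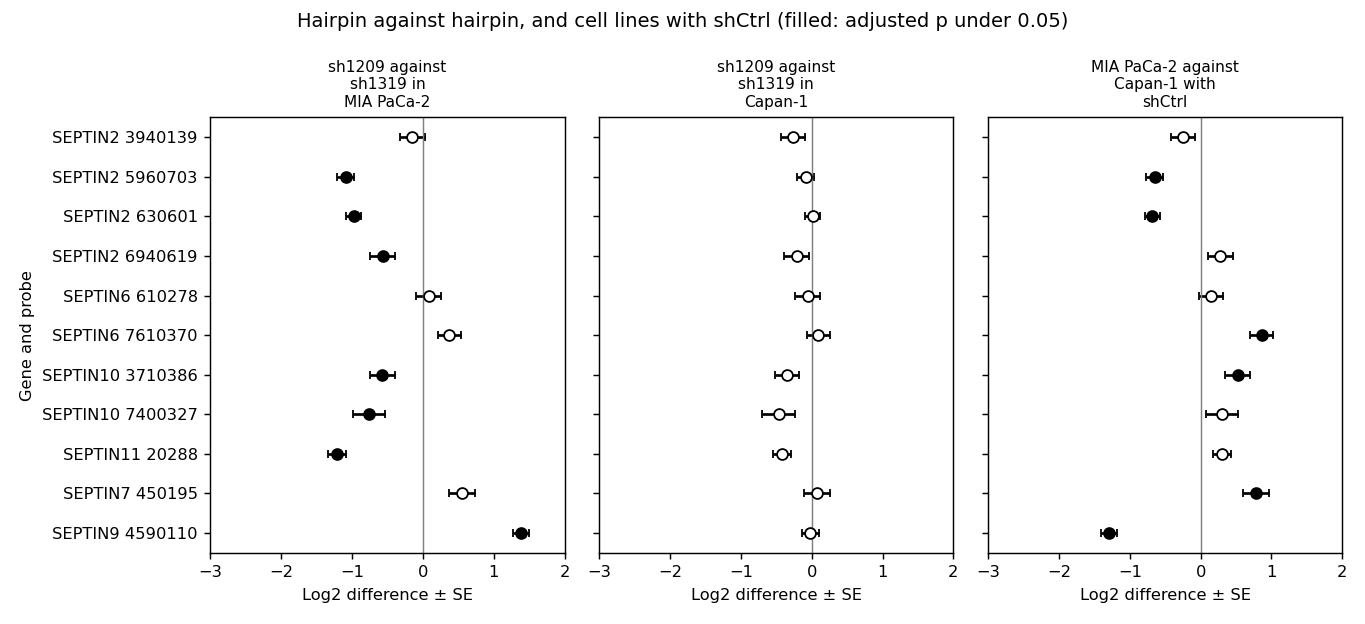
Log2 difference, with its standard error, between the 2 FAK hairpins in each line and between the lines with shCtrl, for the 11 tested septin probes (n = 2 arrays in each group). Filled points passed an adjusted p of 0.05 over all tested probes. The SEPTIN9 point lies right of 0 and those of SEPTIN2 and SEPTIN11 left of it in the MIA PaCa-2 hairpin panel, and no point is filled in the Capan-1 hairpin panel.

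The mean response to the 2 hairpins, each against the shCtrl of its line, was compared between lines as an interaction. It was called for 14.4% of all probes and for 2 of the 11 member probes, SEPTIN11 at −1.71 (SE 0.15) and SEPTIN7 at −1.003 (SE 0.22), both lower in MIA PaCa-2. Without Capan-1 shCtrl replicate 1 the SEPTIN7 interaction was −0.78 and not called.

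Septins outside the 7 symbols had 15 probes for 7 other symbols, of which 7 probes from 5 symbols were tested. The clearest of them was SEPTIN5, a SEPTIN2 subgroup member best known from nerve endings and platelets, at chr22:19714503-19723319. Its probe 6960022, listed as 5-Sep, read 7.23 and 7.30 with shCtrl, 6.47 and 6.60 with sh1209, and 6.28 and 5.82 with sh1319 in MIA PaCa-2, against 5.02 to 5.36 over the 6 Capan-1 arrays. By limma it fell by 0.73 (SE 0.16, adjusted p = 0.0071) with sh1209 and by 1.21 (SE 0.16, adjusted p = 0.00016) with sh1319 in MIA PaCa-2. The sh1209 call was lost without sh1209 replicate 1 (−0.67). In Capan-1 its differences were 0.13 and 0.00, and the interaction was −1.04 (SE 0.19, limma adjusted p = 0.0040). SEPTIN3 (3-Sep, probe 4890021), the neuronal member of the SEPTIN3 subgroup, read 5.51 and 5.53 with shCtrl and 5.19 and 5.16 with sh1209 in MIA PaCa-2, and with sh1319 it was not detected. It was at least 1.76-fold lower there than with shCtrl (limma adjusted p = 0.00031). In Capan-1 it ran from 6.75 to 7.12 and no hairpin difference was called. The second tested SEPTIN3 probe, 6040066, did not show the fall: it was detected in 1 array of each MIA PaCa-2 group and differed there by −0.12 with sh1209 and 0.00 with sh1319 (SE 0.18), not called. It was detected in all 6 Capan-1 arrays and was 0.87 lower in MIA PaCa-2 with shCtrl (limma adjusted p = 0.0020). Of the other two SEPTIN5 probes, 5890537 and 5910446, neither was detected in any array. SEPTIN1 (1-Sep) and the symbol 14-Sep had no tested probe, and no hairpin difference was called for the tested probes of 4-Sep, 12-Sep and 13-Sep.

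BORG proteins, encoded by CDC42EP1 to CDC42EP5, bind septins on one side and the small GTPase CDC42 on the other. Together with CDC42 and RHOQ, a CDC42 relative that also binds BORG proteins, they had 11 tested probes from 7 of 7 genes. This list and that of the cytokinetic ring below were chosen with earlier results of these data known. The genes named from them were picked by their values here, so their p-values are descriptions and not independent tests. With sh1209 in MIA PaCa-2, 3 of the 11 were higher and 2 lower, and with sh1319 1 was higher and 2 were lower, beside 18.0% and 24.3% of all probes called. In Capan-1, 1 was higher and 2 were lower with sh1209, and 0 were called with sh1319 in limma, 3 having an unadjusted p under 0.05, beside 16.8% and 13.7% of all probes. The median difference was 0.09, 0.04, 0.11 and −0.01 in the same order.

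Among the BORG genes, with limma adjusted p-values, CDC42EP1 (probe 6760750) rose by 0.57 (adjusted p = 0.021), CDC42EP3 by 0.75 (adjusted p = 0.012) and CDC42EP4 by 0.91 (adjusted p = 0.00024) with sh1209 in MIA PaCa-2. With sh1319 only CDC42EP3 was called there, and it fell by 0.59 (limma adjusted p = 0.029). The other tested CDC42EP1 probe and the probe of CDC42EP2 were not called with either hairpin in either line. The CDC42EP1 rise was lost without shCtrl replicate 1 (0.37) or sh1209 replicate 2 (0.46), and the CDC42EP3 rise without shCtrl replicate 2 (0.73) or sh1209 replicate 2 (0.60). The CDC42EP3 fall was lost without shCtrl replicate 1 (−0.58) or 2 (−0.63) or sh1319 replicate 1 (−0.45), and with arrays scaled to equal medians (−0.43). It was also lost without background correction (−0.21) and with no filter on detection (−0.59). CDC42EP5 was detected in 0 of 6 MIA PaCa-2 arrays and in all 6 Capan-1 arrays, where it rose by 1.72 with sh1209 (limma adjusted p = 2.5e-06) and differed by 0.30 with sh1319. CDC42 has 3 tested probes. Probe 5270386 fell with sh1209 in both lines, by 0.92 in MIA PaCa-2 (adjusted p = 0.00022) and by 0.73 in Capan-1 (adjusted p = 0.0014), and rose by 0.43 with sh1319 in MIA PaCa-2 (adjusted p = 0.018, limma). The Capan-1 call was lost with arrays scaled to equal medians, at −0.56, and the rise with sh1319 was lost without MIA PaCa-2 shCtrl replicate 1 or 2 (0.43 for each) or sh1319 replicate 1 (0.35). The other probes did not all share these changes. In Capan-1 probe 1780564 fell by 1.04 with sh1209 (adjusted p = 0.0028, limma) and differed by −0.53 with sh1319, not called, and in MIA PaCa-2 its differences, −0.41 and −0.17, were not called. Probe 540021 differed by −0.26 and 0.03 in MIA PaCa-2 and by 0.14 with either hairpin in Capan-1, none of them called. The 2 tested RHOQ probes also disagreed. Probe 5050519 fell with both hairpins in MIA PaCa-2. It fell by 0.80 with sh1209 and by 1.05 with sh1319 (limma adjusted p = 0.0014 and 0.00014), and it differed by 0.33 and −0.31, not called, in Capan-1. Probe 6330059 differed by 0.09 and 0.13 in MIA PaCa-2 and by −0.40 and 0.14 in Capan-1, none of them called.

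Septins hold the contractile ring to the furrow through anillin and work there with myosin II and its regulators. Of 17 genes of the cytokinetic ring, 16 had a tested probe, 25 probes in all, and CIT (citron kinase) had none. In MIA PaCa-2, 2 probes were higher and 3 lower with sh1209, and 4 were higher and 1 lower with sh1319, 5 of 25 each, beside 18.0% and 24.3% of all probes. In Capan-1, 3 were higher and 1 lower with sh1209, and 1 was higher and 4 were lower with sh1319, beside 16.8% and 13.7%. The heavy chains of myosin II moved apart. MYH9, nonmuscle myosin IIA, rose with sh1319 in MIA PaCa-2 on both of its probes, by 1.24 and 1.28 (limma adjusted p = 5.2e-05 and 2.9e-05), while MYH10, nonmuscle myosin IIB, fell there by 0.75 (limma adjusted p = 0.00072). With sh1209 in MIA PaCa-2 neither was called, at −0.05 and 0.15 for MYH9 and −0.04 for MYH10. In Capan-1 MYH9 probe 1510458 rose by 0.64 with sh1209 and 0.55 with sh1319 (limma adjusted p = 0.0085 and 0.021), calls that were lost without Capan-1 shCtrl replicate 2 (0.62 and 0.54), the first also without sh1209 replicate 2 (0.47) and the second without shCtrl replicate 1 (0.57) or sh1319 replicate 2 (0.47). Its other probe, 6620136, differed by 0.46 for sh1209 in Capan-1 (adjusted p = 0.034, limma), a call lost without either shCtrl array (0.55 and 0.37) or sh1209 replicate 2 (0.35) and with arrays scaled to equal medians (0.53), and 0.24 with sh1319, not called. MYH10 fell by 0.68 with sh1319 in Capan-1 (limma adjusted p = 0.0034), which was −0.42 and not called with arrays scaled to equal medians. AURKB, the kinase of the chromosomal passenger complex, fell by 0.67 with sh1209 in MIA PaCa-2 and by 0.76 and 0.70 with the 2 hairpins in Capan-1 (limma adjusted p = 0.0050, 0.0028 and 0.0055), and both Capan-1 calls were lost with arrays scaled to equal medians (−0.50 and −0.47), the second also without Capan-1 sh1319 replicate 1 (−0.53).

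**Figure D4:**
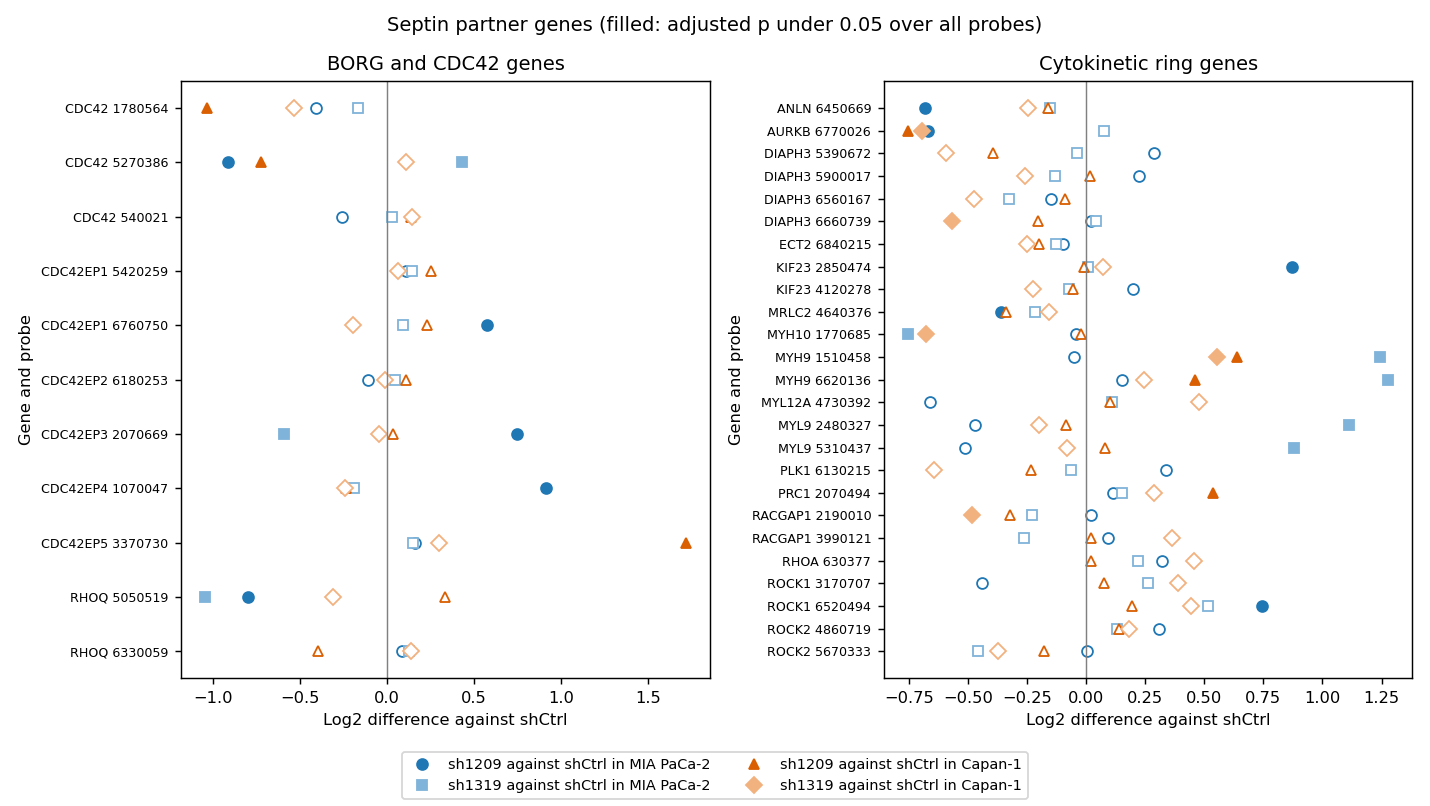
Log2 difference from shCtrl for every tested probe of the BORG and CDC42 genes (left) and of the cytokinetic ring genes (right), with 1 symbol for each hairpin and line (n = 2 arrays in each group). Filled symbols passed an adjusted p of 0.05 over all tested probes. MYH9 lies right of 0 on both probes with sh1319 in MIA PaCa-2, and CDC42EP5 lies farthest right with sh1209 in Capan-1.

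Over the 12 arrays, the probes whose pattern was most like that of SEPTIN11 were those of CBX3, a heterochromatin protein (Pearson's r = 0.98), DKK1, a secreted Wnt inhibitor (r = 0.96), and TMEM54 (r = 0.96). DKK1 differed from shCtrl by −4.46 and −2.88 in MIA PaCa-2 and by −2.005 and −0.80 in Capan-1, the order in which SEPTIN11 differed. For SEPTIN9 they were S100A16, a calcium-binding protein (r = 0.99), WDR61 (r = 0.98) and MEIS2, a homeobox factor (r = 0.97). S100A16 differed from shCtrl by 1.14 with sh1209 and by −1.58 with sh1319 in MIA PaCa-2, and by −0.38 and −0.06 in Capan-1. These correlations run over 12 arrays that fall into 2 cell lines on 1 chip, and they are given as a description.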

How the data were processed

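RNA from the 6 groups (500 ng an array) was hybridised to Illumina HumanHT-12 v4 arrays, 12 on 1 chip. The authors deposited linear probe intensity values that were not normalized, each with a detection p-value. The submitters' processing notes name GenomeStudio 2011.1. From the deposited intensities, background was corrected with limma's nec function (normexp from the deposited detection p-values, offset 16), the 92 spike-in control rows were dropped, and log2 values were quantile-normalized between arrays. The offset shrinks the differences of dim probes. Probes that 2 or more of the 12 arrays detected at a p under 0.05 (24207 of 47228) entered limma 3.58.1 in R 4.3.3, as a model of 6 group means that leaves 6 residual degrees of freedom. Calls are Benjamini-Hochberg adjusted p-values under 0.05 over all tested probes, in each of 8 comparisons. The number of arrays limits the precision. All per-sample columns were used.

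The hairpin spelled shFAK1319 in the Capan-1 labels was read as sh1319. Members, partner lists and marker lists were chosen with earlier results of these data known. All 14 member probes were described, and of the septins outside the 7 symbols those with tested probes. Partner genes with a tested probe were named where a probe passed the threshold in the same direction in at least 2 of the 4 hairpin comparisons; the BORG genes were named in addition after their values were seen. For likeness, the 3 probes of highest Pearson's r were taken. Alternatives were no background correction, median scaling, no detection filter, a stricter filter (p under 0.01 in 4 arrays), a replicate block, the two-tailed unpaired test that the methods name, and leaving out each array. The fit was tested on simulated data. Promoter windows came from RefSeq GRCh38.p14, in which all 7 genes were matched by symbol.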

Additional observations from a re-analysis of the deposited data

Results flagged for a closer look

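The interaction, the difference between the lines in the mean response to the FAK hairpins, was called in limma for 9 of the probes described. It was called for 14.4% of all tested probes, and nothing is read from the count of 9. The response was lower in MIA PaCa-2 for 7 of the 9. For the 2 members the interaction was −1.71 (SE 0.15) for SEPTIN11 and −1.003 (SE 0.22) for SEPTIN7, and these calls are not tests of the members. For the other septins it was −1.04 for SEPTIN5 (adjusted p = 0.0040) and −0.78 for SEPTIN3 (adjusted p = 0.013), and the SEPTIN3 value was −0.62 and not called without Capan-1 shCtrl replicate 1. For RHOQ probe 5050519 it was −0.94 (adjusted p = 0.0028), while the other RHOQ probe gave 0.24, not called. For CDC42EP5, not detected in MIA PaCa-2, it was −0.86 (adjusted p = 0.0024). It was higher in MIA PaCa-2 for CDC42EP4, at 0.60 (adjusted p = 0.016), a call lost without MIA PaCa-2 shCtrl replicate 1 (0.52) or Capan-1 shCtrl replicate 2 (0.57) and with median scaling (0.55), and for COL3A1, at 3.11 (adjusted p = 3.3e-07), which was not detected with shCtrl in either line or with any hairpin in Capan-1. PTK2 itself differed by −1.17 on probe 450253 (limma adjusted p = 0.00021), so by this probe the knockdown was deeper in MIA PaCa-2. The dimmer PTK2 probe, 2680750, gave 0.47, not called. The part of the knockdown depth in the septin values was not tested.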

How the results depend on the processing

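The log2 differences of 33 probes were recomputed under each alternative setting that kept the probe, and by the test that the methods name only as counts. Over 264 differences and 4448 recomputed values, 4273 kept their side of the threshold, 130 lost the call, 45 gained one and 0 called values changed sign. The direction of a difference called in neither fit was not compared. The number of called member probes moved as follows. Median scaling gave 0 for sh1209 in Capan-1 (1 in the main fit), beside 2606 of all 24207 tested probes. No background correction gave 4 for the interaction (2) and 1 between the hairpins in Capan-1 (0), as did no filter and the stricter filter for the latter. Without background correction, 4667 of 24207 probes were called for the interaction and 4063 between the hairpins in Capan-1. For the latter, no filter called 2758 of 47228 and the stricter filter 3302 of 16332. No filter gave 4 between the hairpins in MIA PaCa-2 (7), beside 5330 of 47228 probes. The test that the methods name, after Benjamini-Hochberg, gave 0 for both hairpins in MIA PaCa-2, for sh1209 in Capan-1 and between the hairpins in MIA PaCa-2, and 3 between the lines (6). Unadjusted, it gave 5 for sh1209 in MIA PaCa-2 (3), 1 for sh1319 in Capan-1 (0), 2 between the hairpins in Capan-1 and 3 between the lines. Over all probes it gave 4613, 4393, 3988 and 8686 in the same order. Leaving out 1 array in turn gave 2 to 4 for sh1209 and 6 to 7 for sh1319 in MIA PaCa-2, 0 to 3 and 0 to 0 in Capan-1, 4 to 8 and 0 to 1 between the hairpins in MIA PaCa-2 and Capan-1, 4 to 6 between the lines and 2 to 3 for the interaction. Where a group was left with 1 array, it was assumed to vary like the others.

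Median scaling moved the share of called probes that were higher, over all probes, from 48.4% to 78.6% for sh1209 and from 50.6% to 82.7% for sh1319 in Capan-1, from 50.3% to 65.5% for sh1319 in MIA PaCa-2, from 50.6% to 36.4% between the hairpins in MIA PaCa-2 and from 50.4% to 34.1% for the interaction. The counts of called probes fell from 4365 to 2469, 4074 to 2606, 5478 to 3650, 2730 to 1351 and 3475 to 1968 for sh1209 in MIA PaCa-2, sh1209 in Capan-1, the hairpins in MIA PaCa-2, the hairpins in Capan-1 and the interaction. They also fell from 5887 to 4032 for sh1319 in MIA PaCa-2 and from 3322 to 2345 for sh1319 in Capan-1. Between the lines they fell from 10187 to 8082. The cause was not tested.

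In the normalized values the replicate numbers showed little pairing: over 15 pairs of groups the correlation of deviations ran from −0.061 to 0.16, with 1 over 0.1. Quantile normalization removes a shift of a whole array, so this check could not show one. Before normalization the median intensity was higher on replicate 2 than on replicate 1 in every group, as with sh1209 in MIA PaCa-2 (94.1 against 87.7). With replicate as a block, 1 member call was lost, SEPTIN2 probe 6940619 between the hairpins in MIA PaCa-2 (−0.56), and 1 gained, SEPTIN7 in the same comparison (0.55). Among other genes, calls were lost by SEPTIN5 there (0.48), PECAM1 for sh1209 in Capan-1 (0.57) and RHOQ probe 6330059 between the hairpins in Capan-1 (−0.53) and between the lines (0.41), and gained in Capan-1 by the dim PTK2 probe for sh1209 (−0.46) and CDC42 probe 1780564 for sh1319 (−0.53). Signal near the background limits SEPTIN6, SEPTIN8, SEPTIN10 and the 2 dim SEPTIN2 probes.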
